A study of Homo sapiens with 6 samples.

Results

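The enzymes of the pentose phosphate pathway were examined as a set of 9 genes in H660 cells with and without silencing of MUC1. The set was chosen by gene symbol and comprised PGLS, PGD and H6PD of the oxidative arm, RPIA, RPE, TKT, TKTL1 and TALDO1 of the non-oxidative arm, and PRPS1, which draws on the product of the pathway. These are 9 of the 28008 gene symbols in the count table, and the set does not cover every enzyme of the pathway. All 9 symbols were matched, and 8 of the 9 passed the filter on low counts and were tested. TKTL1 did not pass that filter and is described by its counts.

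H660 (NCI-H660) is an established neuroendocrine prostate cancer (NEPC) line. All 6 libraries came from H660 cells transduced with 1 short hairpin RNA (shRNA) to MUC1 under a tetracycline-inducible promoter and selected in puromycin. MUC1 encodes a mucin whose membrane-spanning part is called MUC1-C, and the comparison addressed which transcripts depend on it. The DOX-negative cells received 0.1% DMSO as vehicle (n = 3), and the DOX-positive cells received doxycycline (DOX) at 500 ng/ml, which switches on the shRNA (n = 3). By the study's description of the RNA-seq, DOX was given for 7 days. No line without the MUC1 shRNA was treated with DOX in these data, so effects of DOX itself and of MUC1 silencing cannot be told apart. The labels describe cultures in triplicate, and p-values measure the spread between those cultures.

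The pentose phosphate pathway branches from glycolysis at glucose 6-phosphate. Its oxidative arm makes NADPH, which feeds glutathione recycling and lipid synthesis, and ends in ribulose 5-phosphate. Its non-oxidative arm interconverts sugar phosphates reversibly, so that cells can make ribose 5-phosphate for nucleotides or return carbon to glycolysis. Rapidly dividing tumor cells draw on both outputs.

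By the RefSeq annotation (GRCh38.p14), the protein-coding genes of the oxidative arm lie at chr19:17511649-17521288 (PGLS), chr1:10399064-10420511 (PGD) and chr1:9234774-9271337 (H6PD). Those of the non-oxidative arm lie at chr2:88691673-88750929 (RPIA), chr2:210002638-210022260 (RPE), chr3:53224712-53256022 (TKT), chrX:154295795-154330350 (TKTL1) and chr11:747464-765012 (TALDO1). PRPS1 lies at chrX:107628510-107651026.

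Total counts ranged from 47620696 to 74061121 per library. MUC1 fell from 86.0 ± 5.65 to 34.6 ± 4.08 CPM (CPM, counts scaled to a normalized library size of 1000000, mean ± SD, n = 3), which was -1.32 on the log2 scale (SE 0.096, edgeR adjusted p = 0.00017). Summed markers of neuroendocrine cells were 1762 to 1984 CPM without DOX and 1518 to 1790 CPM with DOX. In this list of 9, INSM1, a neuroendocrine transcription factor (log2 -0.45, adjusted p = 0.039), and NCAM1, a neural adhesion molecule (log2 -0.50, adjusted p = 0.014), fell and 7 did not pass the test. Of all tested genes, 1.96% were called lower. The luminal prostate markers KLK3 and KLK2 had 0 and 1 counts over the 6 libraries.

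The tested enzymes did not move with DOX beyond the spread between replicates. By edgeR's quasi-likelihood test, 0 of 8 were called at an adjusted p under 0.05, against 4.87% of the 17026 genes tested. At an unadjusted p under 0.05 the count was also 0 of 8, against 21.1% of all tested genes. The groups overlapped for every one of the 8, and 28.1% of all tested genes had groups that did not overlap. With only 8 genes, counts of 0 do not set the enzymes apart from other genes. DESeq2, which called 8.43% of the genes it tested, and limma-voom, which called 3.97%, also called 0 of the 8.

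The size of change that these data allow was bounded. For all 8 enzymes the 95% interval of the edgeR fold change lay within 1.5-fold in either direction. Such an interval was found for 71.9% of all tested genes and for 95.4% of the 6274 genes that averaged 2000 or more counts, a level that each of the 8 exceeded. The narrow intervals are therefore usual for genes of this depth, and 4.62% of those 6274 genes were called.

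In the oxidative arm, the median log2 difference over its 3 members was 0.020, beside 0.00034 over all tested genes. PGLS, the lactonase that opens the 6-phosphogluconolactone ring, had 57.6, 57.2 and 47.3 CPM without DOX (replicates 1, 2 and 3) and 57.7, 69.0 and 54.9 CPM with DOX. The spread was set by a low value in DOX-negative replicate 3 and a high value in DOX-positive replicate 2, and the other 4 libraries were close together. The log2 difference was 0.16 (SE 0.10, fold interval 0.957 to 1.31, adjusted p = 0.41), the largest in size of the 8. Without DOX-positive replicate 2 it was 0.061.

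PGD, the 6-phosphogluconate dehydrogenase that releases NADPH and carbon dioxide, had 347, 340.4 and 324 CPM without DOX and 319.6, 359.6 and 346 CPM with DOX. Both the lowest and the highest of the 6 values were DOX-positive. PGD differed by 0.020 on the log2 scale (SE 0.074, fold interval 0.907 to 1.13, adjusted p = 0.91).

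H6PD, a bifunctional enzyme that makes NADPH in the lumen of the endoplasmic reticulum, had 132, 124 and 121 CPM without DOX and 119.9, 129 and 124 CPM with DOX. Every DOX-positive value but that of replicate 1 lay inside the DOX-negative range. H6PD was the only one of the 8 with a difference below 0, at -0.016 (SE 0.071, fold interval 0.889 to 1.10, adjusted p = 0.93).

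In the non-oxidative arm, the median log2 difference over 4 tested members was 0.029. RPIA, the isomerase that yields ribose 5-phosphate, had 33.1, 31.9 and 35.5 CPM without DOX and 34.3, 33.1 and 36.4 CPM with DOX. The values of the groups were interleaved, with a log2 difference of 0.046 (SE 0.082, fold interval 0.913 to 1.17, adjusted p = 0.80).

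RPE, the epimerase that yields xylulose 5-phosphate, had 43.9, 43.2 and 54.2 CPM without DOX and 48.5, 45.1 and 49.6 CPM with DOX. DOX-negative replicate 3 was the highest of all 6 libraries and the other DOX-negative libraries were the lowest. The log2 difference was 0.021 (SE 0.096, fold interval 0.878 to 1.17, adjusted p = 0.93), and it was 0.13 without DOX-negative replicate 3. RPE overlaps KANSL1L, which had a mean of 1758.5 counts, and has 6 annotated pseudogenes that are not in the count table, so its reads may be shared.

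TKT, the transketolase that moves carbon pairs between sugar phosphates, had 424, 428 and 399 CPM without DOX and 411, 469 and 403 CPM with DOX. DOX-positive replicate 2 stood above the other 5 values. On the log2 scale TKT differed by 0.037 (SE 0.079, fold interval 0.910 to 1.16, adjusted p = 0.84).

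TALDO1, the transaldolase that acts beside TKT, had 89.9, 87.4 and 86.9 CPM without DOX and 84.6, 93.7 and 86.1 CPM with DOX. Means were 88.1 ± 1.61 CPM without and 88.2 ± 4.89 CPM with DOX (SD, n = 3), and the lowest and highest libraries were both DOX-positive. The log2 difference was 0.0011 (SE 0.072, fold interval 0.898 to 1.12, adjusted p = 0.996), the smallest in size of the 8.

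PRPS1, a synthetase that turns ribose 5-phosphate into phosphoribosyl pyrophosphate (PRPP) for nucleotide synthesis, had 73.2, 69.6 and 65.5 CPM without DOX and 72.1, 68.6 and 76.5 CPM with DOX. The highest value was DOX-positive and the lowest was DOX-negative, with overlap between. On the log2 scale PRPS1 differed by 0.061 (SE 0.077, fold interval 0.929 to 1.17, adjusted p = 0.70). PGD, RPIA, TALDO1 and PRPS1 have annotated pseudogenes as well, 2, 1, 1 and 2 of them, which are not in the count table.

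**Figure D1:**
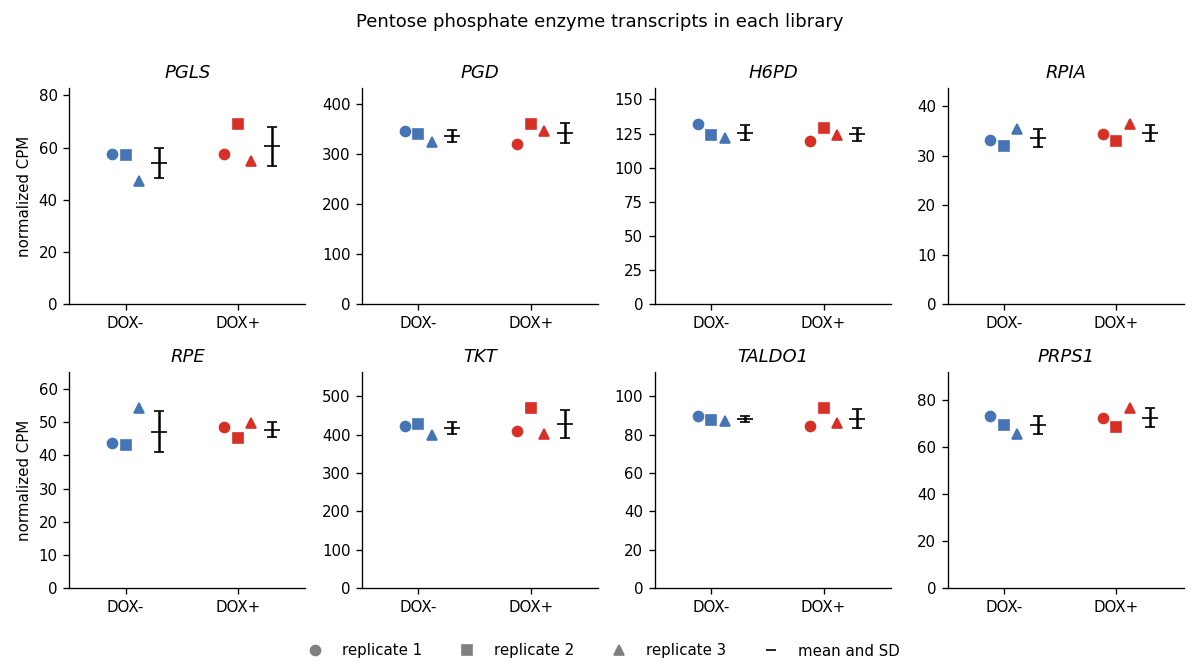
Normalized CPM of the 8 tested enzymes in each library, with a separate vertical axis from 0 for each gene, DOX-negative in blue, DOX-positive in red, marker shape for the replicate number, and bars for the mean and SD (n = 3). The groups overlap in every panel, and DOX-positive replicate 2 is the highest library for PGLS, PGD, TKT and TALDO1.

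**Figure D2:**
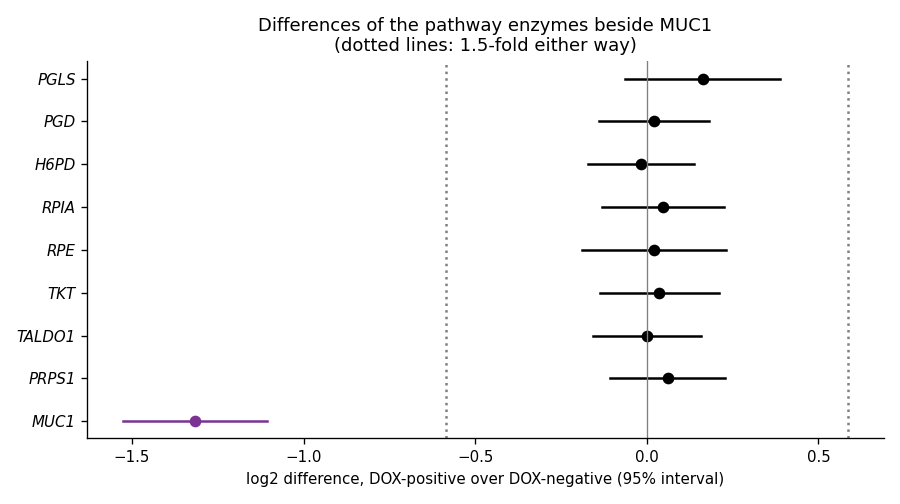
Log2 difference of DOX-positive over DOX-negative libraries with its 95% interval (edgeR) for the 8 tested enzymes and, in purple, for MUC1, with dotted lines at 1.5-fold in either direction. All 8 enzyme intervals include 0 and lie between the dotted lines, and the MUC1 interval lies below them.

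Of the transketolase genes, TKT carried nearly all reads. TKTL1, a transketolase-like paralog, had 1, 0 and 1 counts in the DOX-negative libraries and 0, 0 and 0 in the DOX-positive libraries, against 159062 TKT counts in all. The exact 95% Poisson interval of its 2 counts was 0.242 to 7.23 counts, and this covers counting error only. In the 4 libraries without a count, a count of 0 allows up to 3 counts, or 0.0405 to 0.0527 CPM. A difference in TKTL1 between the groups was not detectable at this depth.

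The stretches of promoter next to the start of the abundant and the barely detected transketolase are shown because these genes differ most in level within the set. Each is the 150 bases just before the annotated start, from RefSeq (GRCh38.p14), read 5′ to 3′ on the gene's strand, with CpG dinucleotides in capitals. TKT (chr3:53256023-53256172, minus strand) and TKTL1 (chrX:154295645-154295794, plus strand) read as follows.
TKT: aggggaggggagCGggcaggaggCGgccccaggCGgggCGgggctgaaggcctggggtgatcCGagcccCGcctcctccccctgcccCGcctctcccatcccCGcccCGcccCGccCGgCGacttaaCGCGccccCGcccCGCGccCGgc
TKTL1: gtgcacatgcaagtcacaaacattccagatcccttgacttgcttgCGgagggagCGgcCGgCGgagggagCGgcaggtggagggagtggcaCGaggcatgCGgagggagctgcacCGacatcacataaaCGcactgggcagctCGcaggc
The TKT stretch held 18 CpG and the TKTL1 stretch held 10.

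In the full windows of 300 bases around each start, TKT had 31 CpG, more than 79.3% of the 35116 RefSeq promoter windows, and TKTL1 had 18, more than 55.5% of them. A later TKTL1 start had 8. TALDO1 had 44. H6PD had 5, in a window that lies inside the gene rather than at the annotated gene start printed above, so it is not comparable with the others. The E-box letters CACGTG, which MYC family proteins can bind, were in the windows of 0 of the 9 genes and in 7.26% of all windows. The antioxidant response letters TGACNNNGC, searched on both strands, were in those of PGD and RPE and in 13.3% of all windows. These are letter matches in a short window and say nothing about binding.

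Levels of different genes were compared per length, in TPM (reads per transcript length, scaled to a total of 1000000). Short structured RNAs such as RN7SK, the RNA that restrains the elongation factor P-TEFb, held 46.5% to 59.8% of the deposited TPM, and protein-coding genes held 15.8% to 23.4%. The TPM were therefore also rescaled to a total of 1000000 over 18786 protein-coding genes. On this rescaled TPM, TKT (399 averaged over 6 libraries) and PGD (396) were highest, with TKT above PGD in 3 of 6 libraries and overlapping ranges. TALDO1 (231), PGLS (187), PRPS1 (99.3) and RPIA (57.1) followed, each above the next in 6 of 6 libraries with ranges that did not overlap.

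RPE (39.4) and H6PD (37.7) were lowest among the tested enzymes, with RPE above H6PD in 3 of 6 libraries and overlapping ranges. TKTL1 averaged 0.0063. The order was the same on the deposited TPM, from 76.5 for TKT to 7.22 for H6PD, though there the ranges of TALDO1 and PGLS and of RPIA and RPE overlapped.

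**Figure D3:**
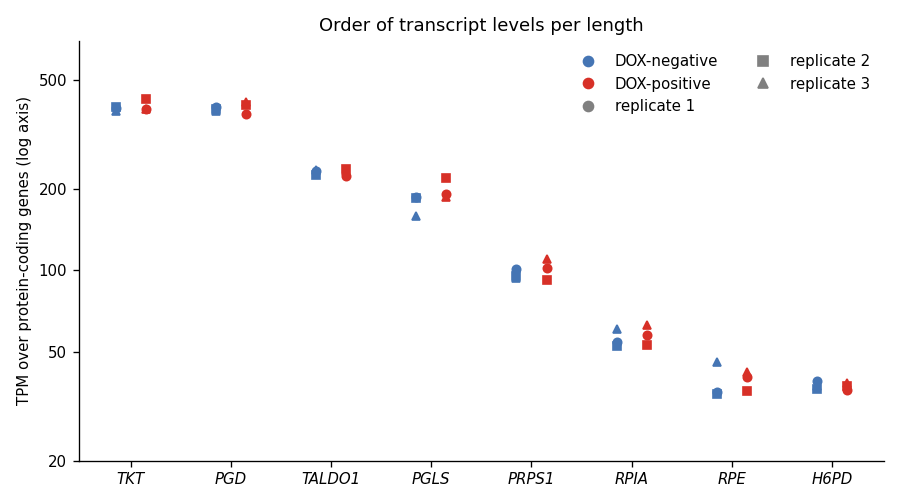
TPM rescaled over protein-coding genes, on a log axis, for the 8 tested enzymes in order of their mean, with DOX-negative libraries in blue, DOX-positive in red and marker shape for the replicate number. TKT and PGD share the top with means of 399 and 396, and RPE and H6PD share the bottom with means of 39.4 and 37.7.

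The balance of the arms was described by summing rescaled TPM. The oxidative members summed to 607 ± 21.3 without DOX and 634 ± 29.1 with DOX (mean ± SD, n = 3), and the non-oxidative members to 719 ± 7.80 and 733 ± 20.5. The ratio of the sums was 0.844 ± 0.036 and 0.865 ± 0.018 and ran from 0.802 to 0.875 over the 6 libraries. The difference of the mean ratios, 0.0213, was smaller than the SD of the DOX-negative libraries and larger than that of the DOX-positive ones. PGD made up 64.7% ± 1.41 of the oxidative sum without DOX and 62.9% ± 1.90 with DOX, and TKT 54.8% ± 1.43 and 55.2% ± 1.504 of the non-oxidative sum.

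PRPS1 was read at about the same level per length as its paralog PRPS2. The PRPS1 share of their summed TPM was 51.0%, 51.5% and 47.3% in the DOX-negative libraries and 50.4%, 48.8% and 50.6% in the DOX-positive libraries. The means were 49.9% ± 2.29 and 49.9% ± 1.03 (SD, n = 3), with an exact two-sided permutation p of 1.0, where 3 libraries against 3 cannot go below 0.10. The same test of the TKTL1 share of TKT plus TKTL1 gave an exact p of 0.40, on 2 counts. With 2 shares tested, no adjustment could bring either to the threshold.

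In each of the 6 libraries some enzymes lay above their means and others below. In DOX-positive replicate 2, log2 CPM relative to the mean of the 6 libraries was 0.28 for PGLS, 0.15 for TKT, 0.090 for TALDO1, 0.085 for PGD and 0.044 for H6PD, and it was -0.041 for RPIA, -0.046 for PRPS1 and -0.067 for RPE. The GC content of the longest transcript was 66.0% for PGLS, 58.1% for TKT, 56.5% for TALDO1 and for H6PD, 52.9% for PGD, 48.6% for RPIA, 47.3% for PRPS1 and 36.6% for RPE. In DOX-negative replicate 3 the order ran the other way at its ends, with -0.27 for PGLS and 0.20 for RPE. Between the ends it did not match GC content throughout, with PRPS1 at -0.11 below TKT at -0.080. In DOX-positive replicate 3 the values were -0.052 for PGLS, -0.066 for TKT, -0.032 for TALDO1 and -0.0085 for H6PD. They were 0.028 for PGD, 0.097 for RPIA, 0.11 for PRPS1 and 0.071 for RPE in that library.

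The medians of all tested genes followed GC content in the same directions in these libraries. Over 4 equal groups of genes from the lowest to the highest GC content, the median of that relative value in DOX-positive replicate 2 was -0.20, -0.051, 0.079 and 0.17, and in DOX-negative replicate 3 it was 0.087, 0.0079, -0.028 and -0.073. In DOX-positive replicate 3 it was 0.083, 0.030, -0.027 and -0.0675, and in DOX-positive replicate 1 it was 0.044, 0.017, -0.016 and -0.024. In DOX-negative replicates 1 and 2 the medians lay between -0.024 and 0.024. GC content was found for 93.0% of tested genes. Structured RNAs held the largest share of counts in DOX-positive replicate 2, 16.2% against 10.7% to 13.2% in the other libraries.

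With the GC trend removed from each library, the log2 difference of PGLS was 0.10 (SE 0.058, limma adjusted p = 0.26) and that of RPE 0.10 (SE 0.076, limma adjusted p = 0.39). TKT was -0.0085, PGD -0.0034 and TALDO1 -0.037, and 0 of 8 enzymes were called, against 13.4% of the 15830 genes in that fit. The lowest adjusted p of any enzyme there was that of PGLS. This fit was added after the data had been seen.

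**Figure D4:**
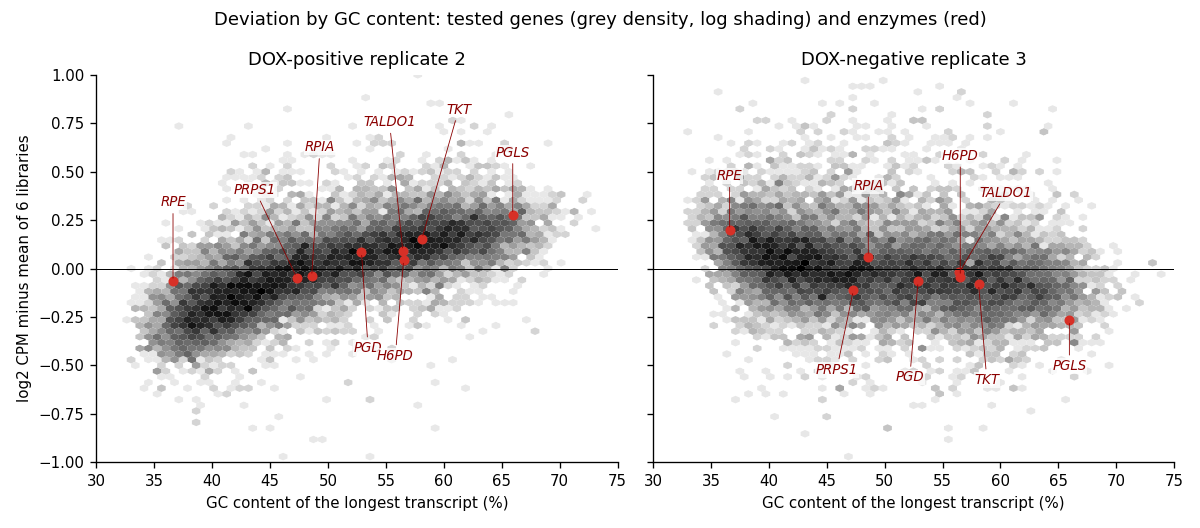
Log2 CPM of each gene relative to its mean over 6 libraries, against the GC content of its longest transcript, in DOX-positive replicate 2 (left) and DOX-negative replicate 3 (right), with tested genes as grey density on a log shading and the 8 enzymes as red points. On the left PGLS lies highest among the enzymes at 0.28 and RPE lowest at -0.067, and on the right PGLS lies lowest at -0.27 and RPE highest at 0.20.

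The genes whose profile over the 6 libraries lay nearest to each enzyme were found by the root mean square difference of relative log2 CPM among 14587 genes that averaged 50 or more counts. For PGLS these were ZNF414 (0.018) and TSC22D4 (0.024), for PGD C1RL (0.017) and SNX29 (0.017), and for H6PD AMER1 (0.013) and VPS52 (0.015). In the non-oxidative arm they were EMC7 (0.011) and SOD2 (0.016) for RPIA, LSM12 (0.024) and VMP1 (0.029) for RPE, ALDH4A1 (0.0088) and ZNF205 (0.011) for TKT, and NGRN (0.0061) and GTF3C2 (0.013) for TALDO1. PRPS1 lay nearest to RNF20 (0.014) and EIF4B (0.015). Of the 14587 genes, 936 lay within 0.1 of RPE and 1256 within 0.1 of PGLS. For the other enzymes the number ran from 3170 for RPIA to 4554 for TALDO1. Profiles this close were thus common for those enzymes and less so for RPE and PGLS.

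Among 13 other genes of the pathway and of PRPP synthesis, 11 were tested and 0 were called, against 4.87% of all tested genes. The 11 had a median log2 difference of 0.016. At an unadjusted p under 0.05 there were 3 of 11, against 21.1% of all tested genes. The 3 are named here after their values were seen. PGM2, an enzyme of the phosphoglucomutase family that acts on phosphopentoses, had 15.1, 12.2 and 14.4 CPM without DOX. It had 17.2, 17.2 and 20.3 CPM with DOX, a log2 difference of 0.39 (SE 0.11, adjusted p = 0.058). IDNK, a gluconate kinase, had 4.24, 4.72 and 4.81 CPM without DOX and 6.01, 6.29 and 5.59 CPM with DOX, a log2 difference of 0.38 (SE 0.11, adjusted p = 0.076). For both genes all DOX-positive values exceeded all DOX-negative values.

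PRPSAP2, an associated subunit of PRPP synthetase, had 24.0, 25.4 and 29.1 CPM without DOX and 22.1, 19.7 and 22.4 CPM with DOX. All DOX-positive values were lower, and the log2 difference was -0.29 (SE 0.096, adjusted p = 0.11). DESeq2 called 1 of the 11 higher and 0 lower, and the fit without GC trends called PGM2 (limma adjusted p = 0.020), IDNK (limma adjusted p = 0.035) and PRPSAP2 (limma adjusted p = 0.037). The calls on these 3 genes thus depended on the processing, unlike those on the 8 enzymes. TKTL2 and PRPS1L1, with 5 and 20 counts over the 6 libraries, were not tested.

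A list of 14 other genes tied to NADPH supply was tested in full, though some, such as ME2 and the NAD kinases, do not mainly make NADPH. Its median log2 difference was 0.0996, with 12 above 0 where 50.1% of all tested genes were above 0. Without DOX-positive replicate 3 this median was 0.035. None was called by edgeR (0 of 14, against 4.87% of all tested genes). At an unadjusted p under 0.05 there was 1, against 21.1% of all tested genes, and DESeq2 called 1. ME2, a mitochondrial malic enzyme, was that gene, with 49.9, 48.3 and 44.3 CPM without DOX and 62.6, 52.3 and 72.8 CPM with DOX. Its log2 difference was 0.40 (SE 0.11, adjusted p = 0.058), and the groups did not overlap. It was called in 6 of 20 alternatives, the fit without GC trends among them (limma adjusted p = 0.010).

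Of 21 genes that use PRPP or make nucleotides, 19 were matched by symbol and tested. Of these edgeR called 0, against 4.87% of all tested genes, and 1 had an unadjusted p under 0.05, against 21.1%. The median log2 difference of the 19 was 0.0081. DESeq2 called 0 of the 19.

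In glycolysis, from which the pathway branches, edgeR called 2 genes lower. Of 34 glycolytic genes, 28 were tested, with 0 called higher and 2 called lower (against 2.91% and 1.96% of all tested genes) and a median log2 difference of -0.16. PGAM1, a phosphoglycerate mutase, fell by 0.77 on the log2 scale (SE 0.13, adjusted p = 0.010), from 36.7, 44.3 and 45.3 CPM without DOX to 28.4, 26.0 and 19.5 CPM with DOX. ADPGK, an ADP-dependent glucokinase, fell by 0.51 on the log2 scale (SE 0.079, adjusted p = 0.0070), from 28.1, 28.1 and 27.6 CPM without DOX to a mean of 19.6 ± 0.692 CPM with DOX (SD, n = 3). The median of the glycolytic list relative to its 6-library mean was -0.48 in DOX-positive replicate 3, and without that library the median difference of the list was -0.0062, with 2 genes called lower. With DOX-negative replicate 3 left out 0 were called lower, and with DOX-negative replicate 2 left out 1 was. The number was 1 when DOX-positive replicate 2 was omitted and 4 when DOX-positive replicate 1 was. It was 3 with DESeq2, 3 with the replicate number as a block and 5 with GC trends removed. On filtered log2 TPM it was 1 with either pseudocount, and on unfiltered log2 TPM it was 0. PGAM1 and ADPGK were each called in 15 of 20 alternatives. Whether the glycolytic genes and the pentose phosphate enzymes differ in their response was not tested.

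Target genes of NRF2, a transcription factor that also drives pentose phosphate genes under oxidative stress, were tested for 21 of 24. Of these 0 were called higher and 1 was called lower (against 2.91% and 1.96% of all tested genes). The median log2 difference of the list was 0.069. AKR1C3, an aldo-keto reductase, fell by 0.37 on the log2 scale (SE 0.081, adjusted p = 0.026), from 22.8 ± 0.663 to 17.7 ± 0.497 CPM (SD, n = 3). It was called in 13 of 20 alternatives, and among those that left out 1 library only without DOX-positive replicate 2 or 3.

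Markers of other cell types were low and partly moved with DOX, where 2.91% of all tested genes were called higher. Summed endothelial markers were 4.19 to 5.43 CPM without DOX and 7.17 to 8.69 CPM with DOX, with CDH5 (log2 0.94, adjusted p = 0.013) and VWF (log2 0.97, adjusted p = 0.018) called higher among 3 tested of 4. KDR, the other tested one, had 0.815 CPM without and 0.483 CPM with DOX (log2 -0.74, adjusted p = 0.44), and PECAM1 had 20 counts in all. Immune markers summed to 1.14 to 1.23 and 1.84 to 2.04 CPM, nearly all of it CD68 (log2 0.78, adjusted p = 0.019), the 1 tested of 5, while CD3E had 0 counts and PTPRC 1 count. Fibroblast markers summed to 25.2 to 30.7 and 23.5 to 27.9 CPM, with COL1A1 (log2 0.60, adjusted p = 0.019) and LUM (log2 1.06, adjusted p = 0.030) called higher among 3 tested of 7. COL1A2, the most abundant of them without DOX, had 18.1 CPM without and 11.1 CPM with DOX in groups that did not overlap (log2 -0.71, adjusted p = 0.20), and COL3A1 had 0 counts. Their part in the values of the enzymes was not tested. All 6 libraries came from cultures of the H660 line. In bulk RNA, a change in some of its cells and a change in all of them cannot be told apart.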

How the data were processed

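RNA from H660/tet-MUC1shRNA cells was sequenced in 3 DOX-negative and 3 DOX-positive libraries, and groups were read from the sample titles. The labels give a stranded mRNA library kit. Structured RNAs without a poly(A) tail, RN7SK among them, held 10.7% to 16.2% of counts, so the type of library is uncertain. The authors deposited a table of raw counts by gene symbol and a table of TPM, and the submitters' processing notes name STAR, DESeq2, GRCh38 and hg38. The aligner version, strand setting and annotation were not given in the sources used here. The ratio of counts to TPM differed between libraries by a coefficient of variation of 0.0039% once library totals were allowed for.

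Counts were tested with edgeR 4.0.16 in R 4.3.3 (filterByExpr, TMM factors, robust quasi-likelihood fit, no covariate), which left 17026 genes. P-values were adjusted over all of them by the Benjamini-Hochberg method and called under 0.05. Intervals are the log2 difference with its SE and the t quantile. Alternatives used DESeq2 1.42.0, limma 3.58.1 (voom, or trend on log2 TPM with a pseudocount of 1 or 0.1), other scalings and filters, a replicate block and each library left out. TPM rescaled over protein-coding genes and removal of GC trends were added after the data were seen. The code was tested on simulated counts. Libraries of a group differed beyond counting noise, with chi-square per degree of freedom of 15.6 to 95.1.

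The members and gene lists were chosen with earlier results of these data known. Named are all members, MUC1, up to 6 called genes of each list by size of change, and the 2 genes nearest in profile to each tested member. Genes named outside this rule are marked. Promoters and positions came from RefSeq (GRCh38.p14) and GC content from the longest GENCODE transcript of each symbol, protein-coding ones first.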

Additional observations from a re-analysis of the deposited data

How the results depend on the processing

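No enzyme was called in any of 20 alternatives, in which 0% to 13.4% of tested genes were called, so each kept its side of the threshold. Alternatives that called few genes could hardly have called a small difference, so they add little here. Directions near 0 did change. TALDO1 was -0.0055 with RLE factors, -0.00089 with upper-quartile factors, -0.011 with no scaling factors, -0.0055 with at least 50 counts, -0.0034 with DESeq2, -0.0013 with limma-voom and -0.037 with GC trends removed. PGD was -0.0034 and TKT -0.0085 with GC trends removed, and H6PD was 0.0066, 0.0073 and 0.0066 in the log2 TPM fits (pseudocount 1, pseudocount 0.1 and no filter). Leaving out 1 library gave ranges of -0.016 to 0.066 for PGD, -0.046 to 0.020 for H6PD, -0.037 to 0.13 for RPE, -0.033 to 0.078 for TKT and -0.042 to 0.031 for TALDO1. PGLS, RPIA and PRPS1 stayed above 0 in all 20. The bound of 1.5-fold belongs to the edgeR fit. On log2 TPM with a pseudocount of 0.1 the SE of PGLS was 0.25, against 0.10 by edgeR.

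The number of genes called, 829 as reported, was 1355 with DESeq2, 30 and 35 on filtered log2 TPM with pseudocounts of 1 and 0.1, 390 on rescaled TPM and 2121 with GC trends removed. On unfiltered log2(TPM + 1) limma called 0, with 1248 at an unadjusted p under 0.05, and MUC1 was -1.22 with an adjusted p of 0.29. The share of calls that were higher was 59.8% as reported and 43.3% and 45.7% on filtered log2 TPM. Leaving out 1 library gave 58 genes (DOX-negative replicate 3 left out) to 1035 (DOX-positive replicate 1 left out), with 127 once DOX-negative replicate 2 was left out and 375 once DOX-positive replicate 3 was. Median log2 differences then ranged from 0.019 to 0.056 for the other pentose phosphate genes and -0.025 to 0.048 for PRPP users. They ranged from 0.048 to 0.12 for NRF2 targets, 0.035 to 0.10 for the NADPH list and -0.32 to -0.0062 for glycolytic enzymes. The cause was not tested.

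Replicate numbers were not taken as pairs, because libraries of the same number had correlations of -0.54, 0.019 and -0.11 over 14587 genes. With the replicate number as a block 998 genes were called, 750 of them shared with the reported calls, and 0 enzymes. With 3 libraries per group, changes of an enzyme smaller than its interval could not be seen.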

Other observations

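Within the genes that use PRPP, both single calls of the fit without GC trends were on NAD synthesis, and these genes are named after their values were seen. NAMPT, which makes nicotinamide mononucleotide, was 0.23 in log2 difference by edgeR (SE 0.13, adjusted p = 0.32) and 0.29 with GC trends removed (limma adjusted p = 0.020). NAPRT, which uses nicotinic acid, was -0.19 (SE 0.11, adjusted p = 0.34) and -0.26 with GC trends removed (limma adjusted p = 0.014). Over their 20 alternatives NAMPT was called in 1 and NAPRT in 2.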
